A study of Homo sapiens with 9 samples.

Results

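The NF-kB pathway genes described here are 40 genes of the 36753 in the deposited files, listed by name for their place in the pathway. These members and the further gene lists below were written with earlier results of these data known. Their shares are thus not independent of the data. They were 5 genes of NF-kB subunits, 5 of inhibitors and atypical IkB proteins, 5 of kinases, 4 of negative feedback proteins, 8 of adaptors and ubiquitin ligases, 3 of receptors, 6 of ligands and other secreted proteins, and 4 of effectors. All 40 gene identifiers were found in the files. RNA sequencing was done on PANC-1, an established human pancreatic carcinoma line, 48 hours after transfection. There were 3 libraries with a short interfering RNA (siRNA) against SIRT6 (siSIRT6), 3 with an siRNA against KDM5C (siKDM5C) and 3 labelled control. SIRT6 encodes a NAD-dependent deacylase of histones and other proteins, and KDM5C encodes a histone lysine demethylase. The labels give no siRNA sequences and do not say whether each target had 1 siRNA or a pool. No cytokine or other NF-kB stimulus is given in the labels for any group. Nor is it stated that replicates came from separate cultures, and p-values therefore measure only the spread between these samples, which may be technical.

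NF-kB proteins are transcription factors that act as dimers and are held in the cytoplasm by IkB inhibitors. In the canonical branch, signals from receptors of TNF, interleukin 1 or microbial products activate a kinase complex that marks IkB for destruction. In the noncanonical branch, the kinase NIK (MAP3K14) accumulates when TRAF and BIRC ligases stop destroying it. Genes of several inhibitors, ligases and subunits are themselves NF-kB targets, which gives the pathway both negative and positive feedback. In pancreatic carcinoma cells the pathway is known for a basal activity that occurs without added ligand.

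The targeted genes were lower in the libraries that carried their name. SIRT6 was at 0.795, 0.509 and 0.487 FPKM (fragments per length of gene, adjusted for library depth) in siSIRT6 libraries, against 6.20, 5.17 and 7.17 FPKM in control libraries. KDM5C was at 3.65, 3.31 and 3.89 FPKM in siKDM5C libraries, against 18.0, 18.4 and 18.8 FPKM in control libraries. Neither gene passed the test under the other siRNA, with adjusted p = 0.106 for SIRT6 after siKDM5C and 0.513 for KDM5C after siSIRT6 (limma). The reads recovered from the FPKM values summed to 18199956 to 26908282 per library, with siSIRT6 replicate 3 and siKDM5C replicate 3 the deepest. Mitochondrial transcripts took 6.53% to 6.91% of reads in siSIRT6 libraries and 5.67% to 6.61% in siKDM5C libraries, against 8.10% to 9.81% in control libraries. KRT8, KRT18 and KRT19, keratins of simple epithelium, were at 138 FPKM or more in every library. On the log2 scale KRT8 fell by 0.94 after siKDM5C and KRT19 rose by 1.03 after siSIRT6. CDH1 (E-cadherin) was at 0.630 FPKM or less, and KRT7 (3.11 to 7.13 FPKM), EPCAM (0.841 to 3.52 FPKM) and CDH2 (1.21 to 4.80 FPKM) were low too. VIM (vimentin) was at 538 to 938 FPKM, above these keratins in every library. VIM rose by 0.44 after siSIRT6 and by 0.46 after siKDM5C, and EPCAM by 0.36 and 0.98. KRT7 fell by 0.45 and 0.60, while KRT18 and CDH2 rose after siSIRT6 and fell after siKDM5C. Of 4 leukocyte markers, PTPRC and LYZ were at or near 0 (at most 0.0608 FPKM) in every library, while CD14 and CD68 were above 1 FPKM. The summed level of the 4 was 35.8 to 38.8 FPKM in siSIRT6 libraries and 72.4 to 93.1 FPKM in siKDM5C libraries, against 43.4 to 57.5 FPKM in control libraries, most of it CD68. CD68 rose after siKDM5C (0.81 ± 0.13, adjusted p = 0.00101, limma) and CD14 fell (-0.42 ± 0.07, adjusted p = 0.0011). Endothelial markers (3 genes) stayed below 1 FPKM, and of 5 fibroblast markers COL1A1 alone exceeded it. The fibroblast markers summed to 40.9 to 42.9 FPKM in siSIRT6 libraries and 14.97 to 16.97 FPKM in siKDM5C libraries, against 15.6 to 16.6 FPKM in control libraries, and COL1A1 rose after siSIRT6 (1.32 ± 0.06, adjusted p = 1.07e-06, limma). The part of these shifts in the results on the members was not tested.

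Start regions of the members were read from RefSeq on GRCh38.p14, as windows of 250 bases before and 50 after an annotated start. They were at hand for 35 of the 40 members, in 57 windows; RELB, NFKBIE, IKBKB, RIPK2 and CSF1 had none. The motif GGGANNTTCC, a core form of the kappa B site that NF-kB dimers bind, was searched on both strands. It was in a window of 12 of the 35 members (34.3%), compared with 1.97% of the 27305 genes with a window. A broader kappa B consensus, which includes every match of the first motif, was in windows of 16 members (45.7%) and of 13.3% of all genes. A match describes letters only and does not show binding. The 12 members with the core motif are shown because they span subunits, inhibitors, feedback proteins, a kinase, a secreted protein and an effector. Each stretch has 30 bases, 5′ to 3′ on the gene's strand, with the motif in capitals. In NFKBIA, MAP3K8, TNFAIP3 and CYLD the match is on the opposite strand, and where 11 bases are in capitals both strands match.
NFKB1: cgacgtcagtGGGAATTTCCagccaggaag
NFKB2: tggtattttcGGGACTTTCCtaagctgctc
REL: cgtcagccgcGGGAAATTCCCctcccgcca
NFKBIA: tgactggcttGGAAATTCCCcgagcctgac
NFKBIB: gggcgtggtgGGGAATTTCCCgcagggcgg
NFKBIZ: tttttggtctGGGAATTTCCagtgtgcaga
MAP3K8: ggggagacgcGGAATTTCCCagcgcggggg
TNFAIP3: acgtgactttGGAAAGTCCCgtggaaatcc
TNIP1: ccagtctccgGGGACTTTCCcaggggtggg
CYLD: ttgacagagcGGAAAGTCCCttcggccggc
IL32: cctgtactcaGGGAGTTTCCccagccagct
CD83: ctggcgcgcaGGGAAGTTCCCgaacgcgcg

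On GRCh38.p14 these stretches lie at chr4:102501300-102501329 (plus strand) for NFKB1, chr10:102395674-102395703 (plus) for NFKB2, chr2:60881517-60881546 (plus) for REL, and chr14:35404811-35404840 (minus) for NFKBIA. Those of NFKBIB and NFKBIZ are at chr19:38899931-38899960 and chr3:101827757-101827786, both on the plus strand. MAP3K8 has its match at chr10:30433982-30434011 (plus), TNFAIP3 at chr6:137867182-137867211 (plus) and TNIP1 at chr5:151081057-151081086 (minus). Those of CYLD, IL32 and CD83 are on the plus strand at chr16:50741887-50741916, chr16:3065294-3065323 and chr6:14117711-14117740. The match began 81 bases before the annotated start of NFKBIA, 67 before that of TNFAIP3, 49 before that of NFKB1 and 21 before an annotated start of NFKB2.

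The whole windows of NFKBIA (chr14:35404700-35404999, minus strand) and TNFAIP3 (chr6:137867009-137867308, plus strand) are shown because these inhibitors had among the largest falls in both knockdowns. The core motif is in capitals.
NFKBIA: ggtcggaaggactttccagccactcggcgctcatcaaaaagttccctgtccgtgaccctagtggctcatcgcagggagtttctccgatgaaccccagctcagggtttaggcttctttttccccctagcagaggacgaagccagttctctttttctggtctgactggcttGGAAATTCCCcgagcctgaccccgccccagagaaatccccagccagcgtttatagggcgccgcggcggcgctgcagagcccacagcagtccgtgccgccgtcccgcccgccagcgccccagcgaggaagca
TNFAIP3: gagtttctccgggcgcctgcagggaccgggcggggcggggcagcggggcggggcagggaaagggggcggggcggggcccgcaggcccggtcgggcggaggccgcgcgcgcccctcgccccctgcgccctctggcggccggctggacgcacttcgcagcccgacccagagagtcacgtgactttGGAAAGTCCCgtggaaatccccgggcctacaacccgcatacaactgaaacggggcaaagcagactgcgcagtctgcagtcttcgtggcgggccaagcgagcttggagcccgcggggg

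In control cells 36 of the 40 members averaged at least 1 FPKM, 23 at least 10 FPKM and 6 at least 50 FPKM. TNFAIP2, an NF-kB target, led with 275 ± 6.67 FPKM (SD, n = 3). BIRC3 followed with 99.4 ± 9.08 FPKM, NFKBIA with 97.5 ± 10.1 FPKM and SDC4 with 95.4 ± 2.93 FPKM. These 3 neighbours differed by less than their spread. CSF1 (62.8 ± 1.02 FPKM) and NFKB2 (62.5 ± 1.42 FPKM) came next and likewise did not differ beyond their spread. At the low end were IKBKE (2.00 ± 0.131 FPKM), IKBKB (1.75 ± 0.0343 FPKM), TNF (0.968 ± 0.246 FPKM), IL1A (0.382 ± 0.0611 FPKM), TLR2 (0.331 ± 0.00581 FPKM) and IL1B (0.0653 ± 0.0514 FPKM). TNF, IL1A and IL1B, the best known inflammatory ligands among the members, were thus among the 5 lowest.

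Most members fell in both knockdowns. A gene was tested if it had at least 1 FPKM in at least 3 libraries. This minimum was met by 36 members, of which MAP3K8 would not have met it without the control libraries. A tested gene passed at an adjusted p below 0.05 over all 16135 genes tested (limma on log2(FPKM + 1)). After siSIRT6, 28 members passed, of which 25 fell and 3 rose, where 50.8% of all tested genes passed (26.9% fell and 23.9% rose). After siKDM5C, 29 members passed, of which 27 fell and 2 rose, where 51.5% of all tested genes passed (25.9% fell and 25.6% rose). The members' median log2 fold change was -0.54 after siSIRT6 and -0.56 after siKDM5C, and that of all tested genes was -0.05 and -0.02 in the same order. Falls of at least 1 on the log2 scale were found for 8 members after siSIRT6 and 10 after siKDM5C, compared with 2.14% and 2.03% of all tested genes. Without MAP3K8, 24 of 35 members fell after siSIRT6 (median -0.49) and 26 of 35 after siKDM5C (median -0.53). Over all 40 members, the 3 knockdown libraries lay below all 3 control libraries for 31 members in each knockdown, where 35.2% of tested genes did so after siSIRT6 and 27.7% after siKDM5C. They lay above all 3 controls for 5 members after siSIRT6 and 2 after siKDM5C, where 30.3% and 28.0% of tested genes did. In bulk RNA, fewer cells with a transcript and less of it per cell cannot be told apart.

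Both knockdowns were compared with the same 3 control libraries. In the fits against them, 24 members fell in both, and RIPK2 and TRAF3 rose in both. CHUK and TNFRSF1A passed after siSIRT6 alone, BCL3, SDC4 and TNIP1 after siKDM5C alone, and IKBKB, IKBKE, IRAK2, NFKBIB and TRAF2 in neither. Passing in 1 knockdown alone does not by itself show that the knockdowns differed. No member passed with opposite signs. Shared controls favour the same sign in both fits for any gene. How many of all tested genes passed in both, with the same or opposite signs, was not counted. These overlaps are therefore descriptions of the members and not a trait particular to them.

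**Figure D1:**
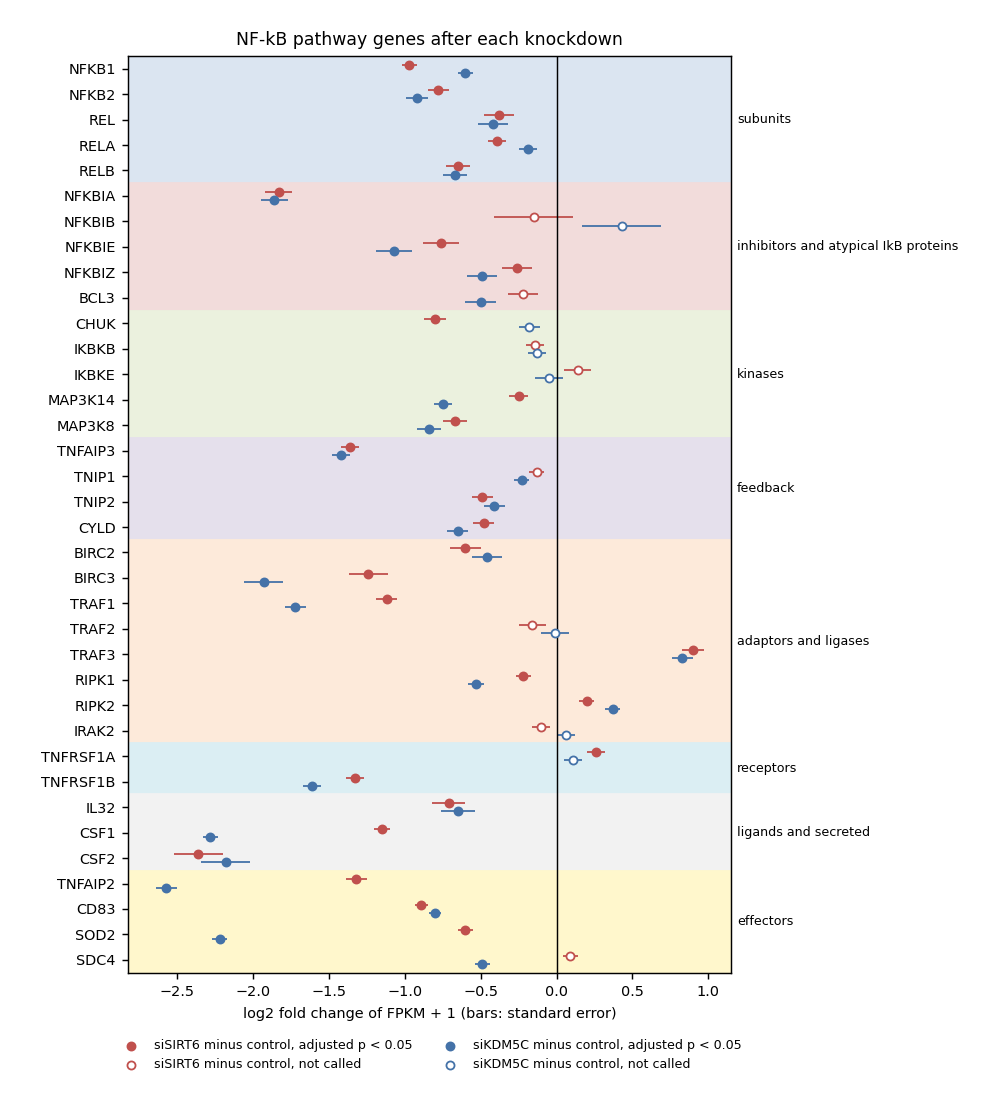
Log2 fold change of FPKM + 1 (x axis) for the 36 tested members in rows grouped by role, for siSIRT6 minus control (red) and siKDM5C minus control (blue); bars are standard errors and filled points have an adjusted p below 0.05. Most points lie left of 0, with TNFAIP2, CSF1, SOD2 and CSF2 the farthest left for siKDM5C and TRAF3 the farthest right for both.

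All 5 subunit genes fell in both knockdowns, where 26.9% of all tested genes fell after siSIRT6 and 25.9% after siKDM5C. NFKB1, which encodes the precursor of a DNA-binding subunit, had 5.48, 5.63 and 5.22 FPKM in siSIRT6 libraries and 7.25, 7.50 and 7.30 FPKM in siKDM5C libraries, against 11.3, 11.8 and 11.9 FPKM in control libraries. The 3 groups did not overlap, and siSIRT6 was the lowest. The log2 fold change was -0.97 ± 0.05 (SE; adjusted p = 1.59e-06, limma) after siSIRT6 and -0.60 ± 0.05 (adjusted p = 1.9e-05) after siKDM5C. NFKB2, the precursor gene of the noncanonical branch and the most abundant of the 5, had 36.0, 35.4 and 36.4 FPKM in siSIRT6 libraries and 33.6, 29.2 and 34.9 FPKM in siKDM5C libraries, against 63.7, 60.9 and 62.7 FPKM in control libraries. Its knockdown libraries were at 57.5% (siSIRT6) and 52.1% (siKDM5C) of the control mean, and both falls passed (adjusted p = 2.93e-05 and 1.22e-05, limma). RELB, its partner with a transactivation domain, had 8.53, 8.57 and 8.17 FPKM in siSIRT6 libraries and 8.07, 7.53 and 9.42 FPKM in siKDM5C libraries, against 13.7, 13.1 and 14.7 FPKM in control libraries. The knockdown groups overlapped each other and lay below all controls. The log2 fold changes of RELB were -0.65 ± 0.08 after siSIRT6 and -0.67 ± 0.08 after siKDM5C.

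RELA and REL, the other subunits with a transactivation domain, fell less. RELA, the main partner of the NFKB1 product in canonical signalling, had 28.5, 26.8 and 27.3 FPKM in siSIRT6 libraries and 32.5, 30.1 and 32.6 FPKM in siKDM5C libraries, against 34.8, 35.5 and 38.9 FPKM in control libraries. Its log2 fold change was -0.39 ± 0.06 after siSIRT6 (adjusted p = 0.000756, limma) and -0.19 ± 0.06 after siKDM5C (adjusted p = 0.0242). The fall after siKDM5C did not pass without control replicate 3 (adjusted p = 0.0729), without siKDM5C replicate 2 (0.0579) or in a fit of those groups alone (0.0674). REL ranged from 1.61 to 3.24 FPKM over the 9 libraries, with both knockdowns below control. Its log2 fold change was -0.38 ± 0.10 after siSIRT6 and -0.42 ± 0.10 after siKDM5C, at 69.3% and 66.4% of the control mean. In the alternatives it reached -0.53 and -0.61. REL overlaps a noncoding gene on the same strand that fell in both knockdowns too, and reads shared by the pair may have been split.

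Summed over the 5 subunit genes, FPKM was 79.4 ± 1.10 in siSIRT6 libraries and 82.0 ± 4.68 in siKDM5C libraries, against 127 ± 3.27 in control libraries (SD, n = 3 each). RELA stood at 75.7% (siSIRT6) and 87.2% (siKDM5C) of its control mean, the highest of the 5. RELA made up 34.7% ± 0.621 of it in siSIRT6 libraries and 38.7% ± 0.651 in siKDM5C libraries, against 28.6% ± 1.07 in control libraries. NFKB2 made up 45.3% ± 0.712 in siSIRT6 libraries and 39.7% ± 1.38 in siKDM5C libraries, against 49.1% ± 1.25 in control libraries. NFKB1 made up 6.86% ± 0.291 in siSIRT6 libraries and 8.99% ± 0.682 in siKDM5C libraries, against 9.15% ± 0.283 in control libraries. These shares are descriptions per length of gene and were not tested.

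**Figure D2:**
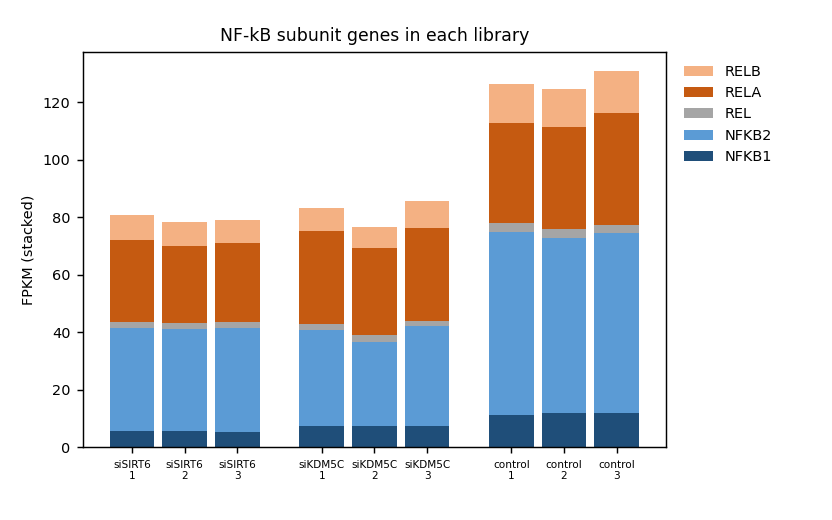
FPKM of the 5 subunit genes, stacked (y axis), in each of the 9 libraries (x axis, numbered within siSIRT6, siKDM5C and control). The bars average 79.4 FPKM for siSIRT6, 82.0 for siKDM5C and 127 for control, and NFKB2 and RELA make up most of each bar.

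Among inhibitors and atypical IkB proteins, 3 of 5 fell after siSIRT6 and 4 of 5 after siKDM5C (26.9% and 25.9% of all tested genes). NFKBIA (ENSG00000100906, chr14:35401511-35404749 on the minus strand of GRCh38), the IkB that holds RELA dimers in the cytoplasm, had 25.9, 26.7 and 27.4 FPKM in siSIRT6 libraries and 23.4, 28.5 and 26.6 FPKM in siKDM5C libraries, against 103, 104 and 86.0 FPKM in control libraries. The knockdown groups overlapped each other and lay far below every control. NFKBIA fell by 1.83 ± 0.09 on the log2 scale after siSIRT6 (adjusted p = 2.03e-06, limma) and by 1.86 ± 0.09 after siKDM5C (adjusted p = 1.65e-06). The ratio of NFKBIA to RELA FPKM was 0.970 ± 0.0529 in siSIRT6 libraries and 0.829 ± 0.115 in siKDM5C libraries, against 2.70 ± 0.419 in control libraries, so transcripts of the inhibitor dropped more than those of the subunit it binds. NFKBIE, another IkB, had 20.4, 20.1 and 21.3 FPKM in siSIRT6 libraries and 13.9, 15.5 and 20.4 FPKM in siKDM5C libraries, against 38.2, 36.6 and 32.0 FPKM in control libraries. Both groups lay below the controls, and siKDM5C replicate 3 stood apart from the other siKDM5C libraries. The log2 fold change of NFKBIE was -0.76 ± 0.12 after siSIRT6 and -1.07 ± 0.12 after siKDM5C.

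BCL3, an atypical nuclear IkB that can activate transcription, had 9.58, 9.02 and 8.36 FPKM in siSIRT6 libraries and 7.13, 6.57 and 8.00 FPKM in siKDM5C libraries, against 9.75, 9.998 and 12.3 FPKM in control libraries. It fell after siKDM5C (-0.50 ± 0.10 on the log2 scale, adjusted p = 0.00302, limma), and its siSIRT6 value was -0.22 ± 0.10 (adjusted p = 0.0914). NFKBIZ, the other atypical nuclear IkB listed, fell after siKDM5C (-0.49 ± 0.10, adjusted p = 0.00306, limma). Its siSIRT6 value was at the threshold (-0.26 ± 0.10, adjusted p = 0.0498) and did not pass in 12 of 19 alternative analyses (adjusted p 0.0522 to 0.164 where it failed). NFKBIB, a further IkB, did not pass in either knockdown and had the largest standard error of the tested members (0.26 on the log2 scale), with 1.68 to 3.63 FPKM in siSIRT6 libraries and 2.84 to 6.47 FPKM in siKDM5C libraries, against 2.48 to 3.11 FPKM in control libraries. NFKBIB overlaps SIRT2 on the other strand, and nothing says on which strand reads were counted.

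Of the 5 kinases, 3 passed after siSIRT6 and 2 after siKDM5C, all of them falls. Of all tested genes, 50.8% and 51.5% passed (26.9% and 25.9% fell), so the number of kinases that passed was near that share. CHUK, the IkB kinase subunit that acts in both branches, had 4.64, 4.18 and 4.25 FPKM in siSIRT6 libraries and 7.55, 7.81 and 6.36 FPKM in siKDM5C libraries, against 8.50, 8.35 and 8.10 FPKM in control libraries. It fell by 0.80 ± 0.07 on the log2 scale after siSIRT6 (adjusted p = 5.01e-05, limma). Its siKDM5C value of -0.18 ± 0.07 did not pass (adjusted p = 0.0697), although it did without siKDM5C replicate 2 (adjusted p = 0.0331). CHUK overlaps ERLIN1 on the same strand, a gene that rose in both knockdowns. MAP3K14, the NIK kinase that starts noncanonical signalling, had 15.7, 14.4 and 15.1 FPKM in siSIRT6 libraries and 10.2, 9.74 and 11.2 FPKM in siKDM5C libraries, against 18.4, 17.8 and 18.1 FPKM in control libraries. The 3 groups did not overlap and siKDM5C was the lowest, with log2 fold changes of -0.25 ± 0.06 after siSIRT6 and -0.75 ± 0.06 after siKDM5C. Its antisense gene MAP3K14-AS1 fell in both knockdowns too, and reads of the pair cannot be told apart without strand.

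MAP3K8, the kinase that links IkB kinase to the MAP kinase cascade, had 1.04, 1.07 and 0.961 FPKM in siSIRT6 libraries and 0.730, 0.784 and 0.880 FPKM in siKDM5C libraries, against 2.28, 2.43 and 1.98 FPKM in control libraries. It would not have met the expression minimum without the control libraries, which favours a lower level in the knockdowns. Its log2 fold change was -0.67 ± 0.08 after siSIRT6 and -0.84 ± 0.08 after siKDM5C with 1 FPKM added, and -1.11 and -1.47 on log2 CPM of the recovered reads, since the added 1 damps low values. IKBKB, the catalytic IkB kinase subunit of the canonical branch, averaged 1.49 ± 0.0330 FPKM in siSIRT6 libraries and 1.52 ± 0.149 FPKM in siKDM5C libraries, against 1.75 ± 0.0343 FPKM in control libraries, and did not pass (95% intervals of the log2 fold change from -0.29 to 0.00 for siSIRT6 and from -0.27 to 0.02 for siKDM5C). IKBKE, a related kinase of interferon signalling, did not pass either (95% intervals from -0.06 to 0.34 and from -0.25 to 0.15).

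Of the 4 feedback genes, 3 fell after siSIRT6 and 4 after siKDM5C (26.9% and 25.9% of all tested genes). TNFAIP3, a ubiquitin-editing enzyme that ends NF-kB signalling and is induced by it, had 3.17, 2.80 and 2.71 FPKM in siSIRT6 libraries and 2.74, 2.56 and 2.85 FPKM in siKDM5C libraries, against 8.68, 9.46 and 8.75 FPKM in control libraries. The knockdown groups overlapped and were at 32.3% (siSIRT6) and 30.3% (siKDM5C) of the control mean. TNFAIP3 fell by 1.36 ± 0.06 after siSIRT6 (adjusted p = 1.48e-06, limma) and by 1.42 ± 0.06 after siKDM5C (adjusted p = 1.09e-06) on the log2 scale. CYLD, a deubiquitinase that also restrains the pathway, had 2.04, 2.21 and 1.99 FPKM in siSIRT6 libraries and 1.75, 1.96 and 1.51 FPKM in siKDM5C libraries, against 3.25, 3.36 and 3.27 FPKM in control libraries. All 6 knockdown libraries of CYLD lay below the controls, and both falls passed (-0.48 ± 0.07 and -0.65 ± 0.07). TNIP1 and TNIP2, ubiquitin-binding partners of TNFAIP3, changed less. TNIP2 fell by 0.49 ± 0.07 after siSIRT6 and by 0.41 ± 0.07 after siKDM5C, and TNIP1 fell by 0.23 ± 0.05 after siKDM5C, while its siSIRT6 value of -0.13 ± 0.05 had an adjusted p of 0.0536 (limma) that passed in 5 of 19 alternatives.

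Adaptors and ligases went in both directions. BIRC3, an inhibitor-of-apoptosis ubiquitin ligase and a classical NF-kB target, had 40.7, 42.3 and 41.5 FPKM in siSIRT6 libraries and 24.6, 31.1 and 21.1 FPKM in siKDM5C libraries, against 103, 106 and 89.0 FPKM in control libraries. The 3 groups did not overlap. BIRC3 fell by 1.24 ± 0.13 after siSIRT6 (adjusted p = 8.43e-05, limma) and by 1.93 ± 0.13 after siKDM5C (adjusted p = 7.86e-06) on the log2 scale. Its neighbour and paralog BIRC2, which acts with it in receptor complexes, had 28.5, 28.7 and 27.5 FPKM in siSIRT6 libraries and 31.1, 36.5 and 26.8 FPKM in siKDM5C libraries, against 44.4, 44.8 and 40.7 FPKM in control libraries. BIRC2 thus fell less, by 0.60 ± 0.10 after siSIRT6 and by 0.46 ± 0.10 after siKDM5C. TRAF1, an adaptor that is also a classical target, had 8.69, 8.86 and 8.48 FPKM in siSIRT6 libraries and 5.10, 4.94 and 6.18 FPKM in siKDM5C libraries, against 19.8, 20.9 and 19.5 FPKM in control libraries. It stood at 43.3% (siSIRT6) and 27.0% (siKDM5C) of the control mean.

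TRAF3, the adaptor that directs MAP3K14 to destruction and so holds back the noncanonical branch, was the clearest exception. It had 9.69, 9.35 and 9.60 FPKM in siSIRT6 libraries and 8.46, 8.95 and 9.79 FPKM in siKDM5C libraries, against 4.80, 4.93 and 4.30 FPKM in control libraries. Every knockdown library was higher than every control, at 204% (siSIRT6) and 194% (siKDM5C) of the control mean. TRAF3 rose by 0.90 ± 0.07 after siSIRT6 (adjusted p = 1.33e-05, limma) and by 0.83 ± 0.07 after siKDM5C (adjusted p = 2.07e-05) on the log2 scale. RIPK2, a kinase adaptor of NOD receptors, rose by 0.20 ± 0.05 after siSIRT6 (adjusted p = 0.0153, limma) and by 0.37 ± 0.05 after siKDM5C (adjusted p = 0.000651). The siSIRT6 rise of RIPK2 did not pass without control replicate 2 (adjusted p = 0.0579) or without siSIRT6 replicate 3 (0.0539).

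RIPK1, the kinase adaptor of the TNF receptor complex, had 4.30, 4.34 and 4.40 FPKM in siSIRT6 libraries and 3.18, 3.35 and 3.46 FPKM in siKDM5C libraries, against 5.42, 5.16 and 5.15 FPKM in control libraries. The groups did not overlap, and the log2 fold changes were -0.22 ± 0.05 after siSIRT6 and -0.53 ± 0.05 after siKDM5C. An antisense gene over RIPK1 fell after siKDM5C as well. TRAF2, the ligase adaptor that joins BIRC2 and BIRC3 to TRAF3, did not pass (95% intervals from -0.36 to 0.04 for siSIRT6 and from -0.22 to 0.19 for siKDM5C). IRAK2, a kinase of interleukin 1 and Toll-like receptor signalling, did not pass either, with intervals from -0.23 to 0.03 and from -0.07 to 0.19.

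Both TNF receptor genes were expressed, and 1 fell in both knockdowns. TNFRSF1B, the inducible receptor that signals through TRAF2, had 18.1, 17.4 and 18.2 FPKM in siSIRT6 libraries and 14.5, 13.95 and 15.3 FPKM in siKDM5C libraries, against 47.6, 43.0 and 49.6 FPKM in control libraries. The 3 groups did not overlap, and TNFRSF1B fell by 1.33 ± 0.06 after siSIRT6 (adjusted p = 1.45e-06, limma) and by 1.61 ± 0.06 after siKDM5C (adjusted p = 5.8e-07) on the log2 scale. TNFRSF1A, the widely expressed receptor with a death domain, averaged 42.1 ± 0.623 FPKM in siSIRT6 libraries and 37.8 ± 2.76 FPKM in siKDM5C libraries, against 34.9 ± 1.39 FPKM in control libraries. It rose after siSIRT6 (0.26 ± 0.06, adjusted p = 0.00678, limma), and its siKDM5C value of 0.11 ± 0.06 did not pass (adjusted p = 0.172). TLR2, a receptor for bacterial lipoproteins, was under the expression minimum in all groups, with 21, 27 and 22 reads in siSIRT6 libraries and 10, 6 and 9 reads in siKDM5C libraries, against 35, 37 and 35 reads in control libraries. Its FPKM ranged from 0.0562 to 0.336 over the 9 libraries.

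The 3 tested genes of secreted proteins fell in both knockdowns (26.9% of all tested genes fell after siSIRT6 and 25.9% after siKDM5C). CSF1 (ENSG00000184371, chr1:109910242-109930992, plus strand), the macrophage growth factor, had 27.2, 27.7 and 28.3 FPKM in siSIRT6 libraries and 12.4, 11.3 and 12.7 FPKM in siKDM5C libraries, against 63.1, 61.7 and 63.7 FPKM in control libraries. The groups lay far apart, at 44.1% (siSIRT6) and 19.3% (siKDM5C) of the control mean. CSF1 fell by 1.15 ± 0.05 after siSIRT6 (adjusted p = 1.12e-06, limma) and by 2.28 ± 0.05 after siKDM5C (adjusted p = 4.33e-08) on the log2 scale. CSF2, the granulocyte and macrophage growth factor, had 0.968, 0.591 and 1.08 FPKM in siSIRT6 libraries and 1.13, 0.823 and 1.42 FPKM in siKDM5C libraries, against 10.1, 8.85 and 7.00 FPKM in control libraries. That corresponded to 15, 9 and 23 reads in siSIRT6 libraries and 17, 12 and 26 reads in siKDM5C libraries, against 145, 133 and 103 reads in control libraries. CSF2 fell by 2.36 ± 0.16 after siSIRT6 and fell by 2.18 ± 0.16 after siKDM5C on log2(FPKM + 1), which understates low values, and the means were 10.2% (siSIRT6) and 12.98% (siKDM5C) of control. IL32, an inducible secreted cytokine, had 11.5, 11.97 and 11.4 FPKM in siSIRT6 libraries and 13.5, 11.2 and 11.9 FPKM in siKDM5C libraries, against 19.4, 16.9 and 23.2 FPKM in control libraries, and both falls passed (-0.71 ± 0.11 and -0.65 ± 0.11).

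TNF, IL1A and IL1B, the ligands that start canonical signalling, were under the expression minimum and were not tested. TNF had 4, 0 and 1 reads in siSIRT6 libraries and 0, 3 and 2 reads in siKDM5C libraries, against 31, 38 and 22 reads in control libraries, or 0 to 0.121 FPKM and 0 to 0.0966 FPKM, against 0.702 to 1.19 FPKM. The knockdown libraries of TNF thus lay below all controls. IL1A ranged from 0.151 to 0.467 FPKM and IL1B from 0.0348 to 0.125 FPKM over the 9 libraries, with overlapping groups.

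Of the 4 effector genes, 3 fell after siSIRT6 and all 4 after siKDM5C (26.9% and 25.9% of all tested genes). TNFAIP2 and SOD2 had the largest differences between the siRNAs of the tested members. TNFAIP2 (ENSG00000185215, chr14:103123442-103137439, plus strand), a TNF-inducible protein linked to membrane protrusions, had 114, 107 and 107 FPKM in siSIRT6 libraries and 41.8, 45.1 and 49.9 FPKM in siKDM5C libraries, against 276, 280.5 and 267 FPKM in control libraries. It fell by 1.32 ± 0.07 after siSIRT6 (adjusted p = 2.32e-06, limma) and by 2.57 ± 0.07 after siKDM5C (adjusted p = 8e-08), the largest fall of any tested member on log2(FPKM + 1), although CSF2 had a lower percentage of its control mean. SOD2 (ENSG00000112096, chr6:159669057-159745186, minus strand), the mitochondrial superoxide dismutase, had 26.8, 27.8 and 27.7 FPKM in siSIRT6 libraries and 8.22, 8.59 and 7.93 FPKM in siKDM5C libraries, against 41.7, 42.4 and 41.7 FPKM in control libraries. The libraries of each group were tightly grouped, and SOD2 fell by 0.60 ± 0.05 after siSIRT6 (adjusted p = 1.61e-05, limma) and by 2.22 ± 0.05 after siKDM5C (adjusted p = 3.42e-08). SOD2 overlaps WTAP on the other strand, which fell in both knockdowns, at 8.96 FPKM in siSIRT6 libraries and 10.97 FPKM in siKDM5C libraries, against 15.5 FPKM in control libraries (means).

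CD83, an activation marker of antigen-presenting cells, had 13.3, 13.1 and 13.05 FPKM in siSIRT6 libraries and 13.9, 14.3 and 13.95 FPKM in siKDM5C libraries, against 24.9, 26.2 and 24.5 FPKM in control libraries. CD83 fell by 0.89 ± 0.04 after siSIRT6 and by 0.80 ± 0.04 after siKDM5C. Of the leukocyte markers, PTPRC was at 0.0120 FPKM or less in these libraries. CD14 was at 1.60 to 3.23 FPKM and CD68 at 34.0 to 91.2 FPKM. SDC4, a cell-surface heparan sulfate proteoglycan, had 100.5, 101 and 103 FPKM in siSIRT6 libraries and 67.6, 65.2 and 69.6 FPKM in siKDM5C libraries, against 98.8, 93.99 and 93.5 FPKM in control libraries. It fell after siKDM5C (-0.49 ± 0.05, adjusted p = 5.59e-05, limma) and did not pass after siSIRT6 (0.09 ± 0.05, adjusted p = 0.134).

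**Figure D3:**
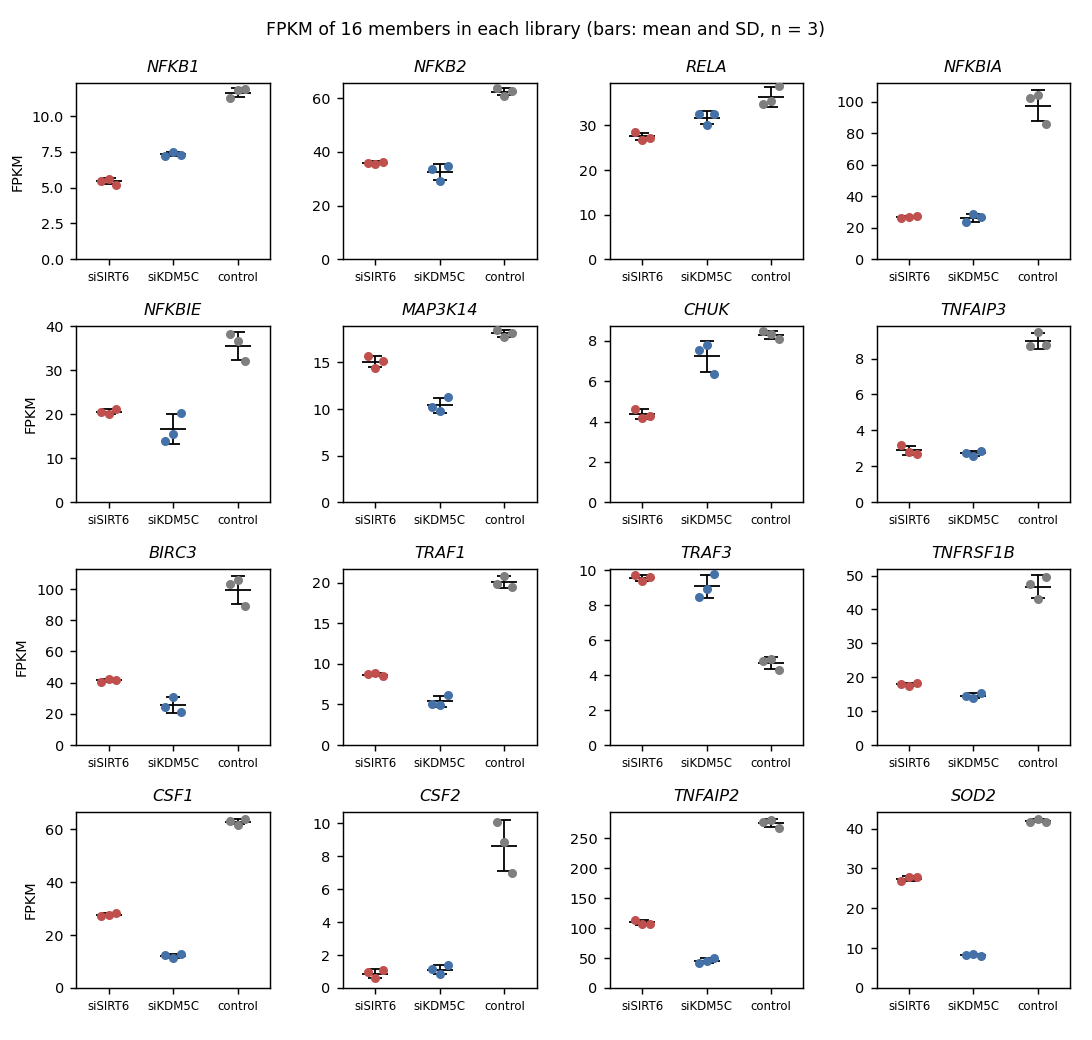
FPKM (y axes, from 0) of 16 members in each library of siSIRT6 (red), siKDM5C (blue) and control (grey); bars are the mean and SD (n = 3 each). TRAF3 is higher in both knockdowns than in control, CHUK is lowest in siSIRT6, and SOD2, TNFAIP2 and CSF1 are lowest in siKDM5C.

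The siRNAs were then compared with each other, a difference in which the control libraries have no part beyond the shared estimate of the spread. Of the 36 tested members, 13 passed, with 9 higher and 4 lower after siSIRT6 than after siKDM5C, where 39.9% of all tested genes passed (18.6% higher and 21.3% lower). The members' median difference was 0.08 on the log2 scale, beside -0.02 for all tested genes. With median-of-ratios scaling 13 members were higher and 2 lower, and without siKDM5C replicate 3 it was 15 higher and 4 lower. That scaling also turned the balance of all tested genes, to 3449 higher and 2990 lower, against 3009 and 3433 without it. Over all 40 members, the 3 siSIRT6 libraries lay above the 3 siKDM5C libraries for 16 members and below them for 6, where 23.9% and 27.8% of tested genes did. Differences of at least 1 were found for SOD2 (1.62 ± 0.05, adjusted p = 4.59e-07, limma), TNFAIP2 (1.25 ± 0.07, adjusted p = 6.53e-06) and CSF1 (1.13 ± 0.05, adjusted p = 2.63e-06), all higher after siSIRT6, where 1.02% of tested genes were that much higher. Mean FPKM in siSIRT6 libraries was 332% of that in siKDM5C libraries for SOD2, 239.9% for TNFAIP2 and 228% for CSF1. BIRC3 (0.69 ± 0.13), TRAF1 (0.60 ± 0.07), SDC4 (0.59 ± 0.05), MAP3K14 (0.50 ± 0.06), RIPK1 (0.30 ± 0.05) and TNFRSF1B (0.28 ± 0.06) were also higher after siSIRT6.

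The 4 members that were lower after siSIRT6 than after siKDM5C were CHUK (-0.62 ± 0.07, adjusted p = 0.000336, limma), NFKB1 (-0.37 ± 0.05, adjusted p = 0.000426), RELA (-0.20 ± 0.06, adjusted p = 0.0275) and RIPK2 (-0.17 ± 0.05, adjusted p = 0.0354). RELA did not pass in 5 of 19 alternatives and RIPK2 in 8 of 19. By role, none of the 5 inhibitors and none of the 4 feedback genes passed between the siRNAs in the analysis as described. Of all tested genes, 39.9% passed there. BCL3 came close (0.28, 95% interval from 0.05 to 0.51, adjusted p = 0.0516, limma) and passed in 8 of 19 alternatives, while NFKBIB, NFKBIZ, CYLD and TNIP1 passed in 1 or 2 each. For NFKBIA the difference was 0.03 with a 95% interval from -0.18 to 0.24, and for TNFAIP3 it was 0.07 with an interval from -0.08 to 0.21. NFKB2 (-0.01 to 0.29), RELB (-0.16 to 0.20), TRAF3 (-0.08 to 0.22), CD83 (-0.19 to 0.01) and CSF2 (-0.53 to 0.18) did not pass either. For NFKBIE the difference was 0.31 with an interval from 0.02 to 0.59 and an adjusted p of 0.0815, and it passed in 4 of 19 alternatives, with its smallest adjusted p without siKDM5C replicate 3 (0.46, adjusted p = 0.00487).

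**Figure D4:**
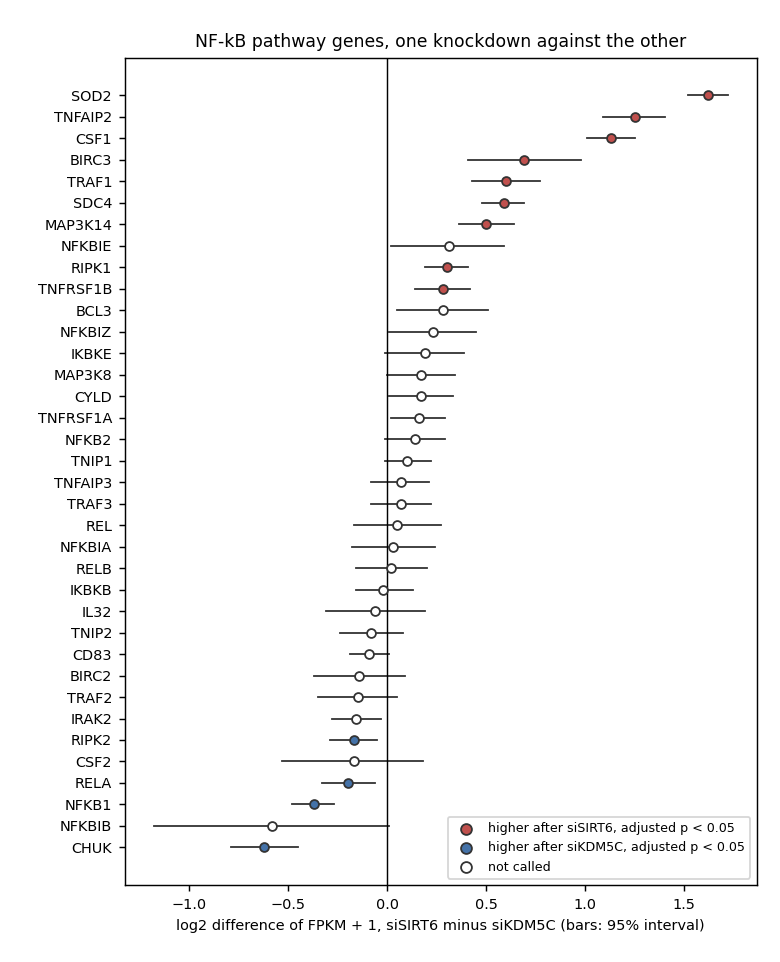
Log2 difference of FPKM + 1, siSIRT6 minus siKDM5C (x axis), for the 36 tested members ordered by size, with 95% intervals; red is higher and blue lower after siSIRT6 with an adjusted p below 0.05. SOD2 (1.62), TNFAIP2 (1.25) and CSF1 (1.13) are the highest and CHUK (-0.62) is the lowest.

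The members with a core kappa B motif in their start region included 10 of 12 that fell and none that rose after siSIRT6, and 11 of 12 that fell and none that rose after siKDM5C. MAP3K8 would not have met the expression minimum without the control libraries. Leaving it out, 9 of 11 fell after siSIRT6 and 10 of 11 after siKDM5C, with medians of -0.71 and -0.65. Of the 19 tested members with a window and no match, 12 fell and 2 rose after siSIRT6, and 13 fell and 1 rose after siKDM5C. The median log2 fold change was -0.69 with the motif and -0.39 without it after siSIRT6, and -0.65 and -0.49 after siKDM5C. The broader consensus split the members less after siSIRT6. With it 11 of 16 fell and 1 rose, and without it 11 of 15 fell and 1 rose (medians -0.57 and -0.49). After siKDM5C, 14 of 16 with it fell and 1 rose, and 10 of 15 without it fell and none rose (medians -0.62 and -0.46). TRAF3, which rose in both knockdowns, had a match of the broader consensus. Of all tested genes, 26.9% fell after siSIRT6 and 25.9% after siKDM5C. TNFAIP2, SOD2, TRAF1, TNFRSF1B, BIRC3 and CSF2, which had large falls, had no core match in these windows. Among members with a window that fell by at least 1 on log2(FPKM + 1), NFKBIA and TNFAIP3 alone had the core motif. This held in each knockdown. Between the siRNAs, 1 of the 12 members with the motif passed (NFKB1, lower after siSIRT6), and of the 19 without it 8 were higher and 2 lower after siSIRT6.

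Of a further 40 receptors, adaptors, kinases and regulators of the pathway, 34 were tested. After siSIRT6, 11 of them fell, 9 rose and 14 did not pass, with a median log2 fold change of -0.04, where 26.9% of all tested genes fell and 23.9% rose (median -0.05). After siKDM5C, 18 fell, 9 rose and 7 did not pass, with a median of -0.21, where 25.9% of all tested genes fell and 25.6% rose (median -0.02); without control replicate 2, 17 passed in all instead of 27. IL1R1, the signalling receptor of interleukin 1, rose in both knockdowns, with 2.25, 2.16 and 2.19 FPKM in siSIRT6 libraries and 3.27, 3.73 and 3.51 FPKM in siKDM5C libraries, against 0.902, 1.07 and 0.842 FPKM in control libraries. CD40, a TNF-family receptor, fell in both, with 6.07, 6.31 and 5.38 FPKM in siSIRT6 libraries and 5.05, 4.93 and 5.20 FPKM in siKDM5C libraries, against 9.85, 9.67 and 8.78 FPKM in control libraries. TBK1, an IkB-kinase relative, and OTULIN, a deubiquitinase of linear chains, fell in both as well, by 0.55 and 0.35 after siSIRT6 and by 0.54 and 0.48 after siKDM5C. TAB2, an adaptor of the TAK kinase, and MYD88, the adaptor of interleukin 1 and Toll-like receptors, fell in both too (TAB2 by 0.54 after siSIRT6 and by 0.31 after siKDM5C, MYD88 by 0.20 and 0.33). TRADD, the adaptor of the TNF receptor, rose by 0.69 after siSIRT6 and by 0.75 after siKDM5C, TAX1BP1, a partner of TNFAIP3, by 0.55 and 0.24, and TNFRSF11A, the RANK receptor, by 0.16 and 0.52. TLR4, the receptor of bacterial lipopolysaccharide, met the expression minimum through the siSIRT6 libraries alone, so that it had to be higher there. Its FPKM was 1.52 to 1.59 in siSIRT6 libraries and 0.421 to 0.647 in siKDM5C libraries, against 0.786 to 0.877 in control libraries. TLR4, counted among the 9 that rose after siSIRT6, rose by 0.48 there and fell by 0.26 after siKDM5C (adjusted p = 0.0186, limma). The difference of TLR4 between the siRNAs (0.75 ± 0.08) depends on that minimum in the same way, so no p-value is given for it. NKIRAS2, a Ras-like inhibitor of IkB breakdown, likewise rose by 0.36 after siSIRT6 and fell by 0.18 after siKDM5C. That fall of NKIRAS2 passed in 15 of 19 alternatives. IRAK1 rose by 0.42 ± 0.07 after siSIRT6 and fell by 0.33 ± 0.07 after siKDM5C, and both passed in all 19 alternatives. TRAF6, the ligase of interleukin 1 signalling, rose by 0.49 after siKDM5C, and its siSIRT6 value was -0.03 ± 0.09.

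Known target genes outside the 40 members, listed with earlier results of these data known, were mostly lower. Of 26 listed, 20 were tested; after siSIRT6, 15 fell and 2 rose (median log2 fold change -1.04), and after siKDM5C, 13 fell and 3 rose (median -1.0), where 26.9% and 25.9% of all tested genes fell and 23.9% and 25.6% rose. MMP9, a matrix protease, met the expression minimum through the control libraries alone; without it 14 of 19 fell after siSIRT6 and 12 of 19 after siKDM5C. ICAM1, an adhesion molecule for leukocytes, had 150.2, 149 and 152 FPKM in siSIRT6 libraries and 96.4, 102 and 108 FPKM in siKDM5C libraries, against 644, 639 and 616 FPKM in control libraries. CCND1, the G1 cyclin, fell by 2.04 ± 0.06 after siSIRT6 and by 2.52 ± 0.06 after siKDM5C, and IRF1, an interferon-response factor, by 1.12 ± 0.05 and 1.77 ± 0.05. PLAU, the urokinase protease, fell by 1.47 ± 0.06 after siSIRT6 and by 1.35 ± 0.06 after siKDM5C. EBI3, a cytokine subunit, fell by 2.01 ± 0.12 after siSIRT6 and by 3.43 ± 0.12 after siKDM5C. The exceptions were BCL2L1, an inhibitor of apoptosis that rose in both (0.92 ± 0.08 after siSIRT6 and 1.14 ± 0.08 after siKDM5C), CXCL1, a neutrophil chemokine that rose after siSIRT6 (1.05 ± 0.09), and MYC and VEGFA, which rose after siKDM5C (0.81 ± 0.06 and 0.29 ± 0.05). CXCL1 after siKDM5C was at -0.20 ± 0.09 (adjusted p = 0.0851, limma) and differed between the siRNAs by 1.25 ± 0.09 (adjusted p = 1.99e-05).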

How the data were processed

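Transcripts of 9 PANC-1 libraries (3 siSIRT6, 3 siKDM5C, 3 control) were analysed from FPKM values that the authors deposited, 1 file per library, without pooling of replicates. Libraries were made with a stranded mRNA kit, per the labels' protocols; Trimmomatic, HISAT2, Cufflinks, HTSeq and the hg38 build are named in the submitters' processing notes, without versions or each tool's part, and the sources used here name neither the annotation nor the strand counted. That the unit is FPKM was read from the values: 58.93% of genes gave whole reads at the total length of their annotated exons (tolerance 0.01 of a read). For the rest, other lengths were tried until whole reads resulted, so the final 100% was partly fixed by that search. The recovered reads served for depth and for 1 alternative on CPM. A count of 0 allows up to 3 reads, which for a length of 1 kilobase is 0.111 FPKM at the highest depth and 0.165 FPKM at the lowest, for counting error only. Gene symbols were looked up in a gene name table and in GENCODE release 29, the source of gene coordinates (GRCh38).

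Genes needed at least 1 FPKM in 3 or more libraries, which left 16135, and were fitted on log2(FPKM + 1) with limma 3.58.1 (R 4.3.3), trend moderation, 1 fit of all 9 libraries and 3 comparisons, two-sided, with Benjamini-Hochberg adjustment over all genes tested and a threshold of 0.05. Fold changes on this scale are smaller than ratios of FPKM for low genes. The fit was tested on simulated data. Members and lists were chosen with earlier results of these data known. Values of every library are given for members that passed with a log2 fold change of at least 0.5 in size in any comparison, and for RELA, chosen after its values were seen; of other lists, the genes named are among the 4 with the smallest adjusted p per direction and knockdown, and remaining names were chosen after their values were seen. Alternatives were another pseudocount (0.1), no minimum, a minimum of 5 FPKM, median-of-ratios scaling, fits of the groups compared alone, a replicate block, no trend, protein-coding genes alone, CPM of the recovered reads, each library left out, and, added after seeing the data, mitochondrial reads left out. Replicate numbers were checked for pairing and did not pair the libraries. A marker gene of the leukocyte list is not reported here.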

Additional observations from a re-analysis of the deposited data

How the results depend on the processing

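Over 19 alternatives (18 for REL, NFKBIB, IKBKB, IKBKE, MAP3K8 and CYLD, which a minimum of 5 FPKM removes) no member reversed a change that had passed; 26 of 28 members kept their call in each alternative that tested them after siSIRT6 (not NFKBIZ and RIPK2), 28 of 29 after siKDM5C (not RELA) and 11 of 13 between the siRNAs (not RELA and RIPK2). With 1 library left out, 26 to 28 members passed after siSIRT6, 28 to 29 after siKDM5C and 11 to 19 between the siRNAs, of 28, 29 and 13 with all libraries. For the other pathway genes after siKDM5C these fits gave 17 to 25, against 27 with all libraries. A minimum of 5 FPKM lowered the genes that passed to 5367 after siSIRT6 (8194 otherwise) and 5418 after siKDM5C (8308 otherwise), and the other pathway genes to 12 after siSIRT6, 13 after siKDM5C and 9 between the siRNAs, because 9446 genes and 18 such genes were tested. Without mitochondrial reads, an alternative chosen after seeing the data, 29, 30 and 13 members passed. With the replicate block, 27, 29 and 12 passed; correlations of same-numbered deviations ran from -0.229 to 0.252 and 5 of 9 libraries correlated best with their own number, so the block rests on shared numbers only. Low read counts limit TNF, TLR2, IL1A and IL1B, and the added 1 FPKM damps low genes such as MAP3K8, CSF2 and REL.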
